A study of Homo sapiens with 12 samples.

Results

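The transcriptome of IMR-32 neuroblastoma cells under 400 nM THZ531 was compared with that of the same cells under DMSO. The comparison takes in the 2 arrays labelled as IMR-32 treated with 400 nM THZ531 and the 2 labelled as IMR-32 treated with the solvent DMSO, 4 of the 12 PrimeView arrays of the series. The remaining arrays hold IMR-32 at 100 nM and the neuroblastoma line Kelly in DMSO and at both doses, again 2 arrays each, and they enter the fit through a shared estimate of the spread. All groups share the same serum-supplemented medium and an exposure of 6 h, the labels name no genetic change, and each group is 1 cell line, so that the results hold for that line. The labels call the 2 arrays of a group biological duplicates without saying how the cultures were separated, so p-values measure the spread between these arrays.

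THZ531 is a covalent inhibitor of CDK12 and its paralog CDK13. Each kinase pairs with cyclin K and phosphorylates the C-terminal domain of RNA polymerase II while it elongates. Loss of this activity is known to reduce elongation and to favour early cleavage and polyadenylation inside genes, and long genes, among them many of the DNA damage response, are known to be sensitive to it. IMR-32 is a MYCN-amplified line of the adrenergic type, whose state is held by a circuit of transcription factors that includes PHOX2A, HAND2 and GATA3.

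Array intensities were used on the log2 scale as the authors scaled them, to ERCC RNAs that had been added to the purified total RNA, of which 100 ng was labelled for each array. This scaling keeps a shift that most genes share. Each change is the mean of the 400 nM arrays minus the mean of the DMSO arrays and carries the standard error of limma (± SE, n = 2 arrays per group). A change relative to the median gene is that value minus the median change of all genes, which is −0.67, so it lies 0.67 above the printed change for every gene and list. Median intensity was 107.6 and 131.8 in the DMSO arrays and 59.9 and 55.9 at 400 nM, over 49495 rows. Hybridisation controls, which are added after labelling and were not used for the scaling, had mean log2 levels of 10.85 and 11.31 in DMSO and 10.51 and 10.53 at 400 nM, so they moved with the treatment, and with these controls made equal the median change was −0.11, with 4377 genes lower and 255 higher. Poly(A) controls were at 9.57 and 9.75 in DMSO and 9.55 and 9.76 at 400 nM, and the ranges overlapped. With 2 arrays in each group the smallest two-sided p of an exact permutation test is 0.333.

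Defining markers of the labelled cell type were present. Of 12 marker genes of adrenergic neuroblastoma 10 are in the genes tested (the other two were not analysed here), with DMSO levels from 7.24 for DBH, which lay below the median gene at 7.37, to 13.74 for MYCN. The other 9 lay above the median gene. Of 32 markers of glia, fibroblasts, endothelium, leukocytes and epithelium, 2 lay above the median gene, SNAI2 at 9.53 and CD44 at 8.17. The summed intensity of these 32 markers was 2752 and 3197 in DMSO and 2057 and 1740 at 400 nM. That of the 10 neuroblastoma markers was 43488 and 51805 in DMSO and 22055 and 19739 at 400 nM. Both sums were lower at 400 nM, on a scale where most genes were. A change in the share of other cells can therefore not be read from them.

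At 400 nM the median gene was lower on the deposited scale, and that direction rests on the scaling. Of 18244 genes tested, 7123 (39.0%) fell and 72 (0.395%) rose by limma at an FDR of 0.05, and both 400 nM arrays lay beyond both DMSO arrays for each of these genes. A gene is called lower, higher, fallen or risen here only where it passed, and the adjusted p of these calls starts at 0.0174. The median change of all genes was −0.67, with −0.63 and −0.75 in the single 400 nM arrays, and 91.4% of all genes had a negative change. The quartiles of the change were −1.55 and −0.28. Of the genes that fell, 5986 did so by more than 1 on the log2 scale, 2891 by more than 2 and 725 by more than 3. The methods of the study state that cells were counted before lysis. Among the cells counted, fewer living ones and less RNA per cell cannot be told apart in bulk RNA.

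The calls hold only for the 4 arrays together. Without any 1 of them 0 genes passed (smallest adjusted p between 0.058 and 0.135), while between 5317 and 8187 genes were lower and between 62 and 118 higher at p below 0.05 before adjustment. The balance of the calls rests on the scaling. Lower calls were 99.0% of all calls as deposited, 94.5% with equal hybridisation controls, 78.9% when the arrays were shifted to bring the median gene near 0, 59.8% with quantile normalization, and 45.8% and 31.9% with arrays centred on the median of all rows and of all genes. The median change was −0.67 as deposited, −0.11 with equal hybridisation controls, 0.028 with the median gene brought near 0, 0.18 with quantile normalization, and 0.37 and 0.52 with the 2 centrings. With the median gene brought near 0, a shift chosen after the data were seen, 3251 of the 7123 falls were still called lower, all 72 rises were still called higher, and 868 genes in all were called higher.

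Size of the change varied with how bright a gene was. In the lowest of 10 equal bins by DMSO level the median change was −0.10 and 1.81% of genes fell. The median reached −1.75 in bin 8, where 74.8% fell, and returned to −0.89 in the brightest bin, where 40.1% fell. Dim genes lie near the floor of the array and have little room to fall, so each group of genes below is read against all genes and also against the 9122 genes above the median DMSO level of 7.37, of which 5785 fell (63.4%), with a median of −1.41. The array also holds 23 background control rows, 1 for each class of base composition, whose mean was 5.00 and 5.09 in the DMSO arrays and 5.01 and 5.02 at 400 nM, with single rows between 1.54 and 12.61. Both treated arrays lay below this background mean for 582 of the 7123 falls and 1 of them for 266, and both DMSO arrays for 12 of the 72 rises. The change of such a gene has no measured end or start, and its size and its order among the others are not read.

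**Figure D1:**
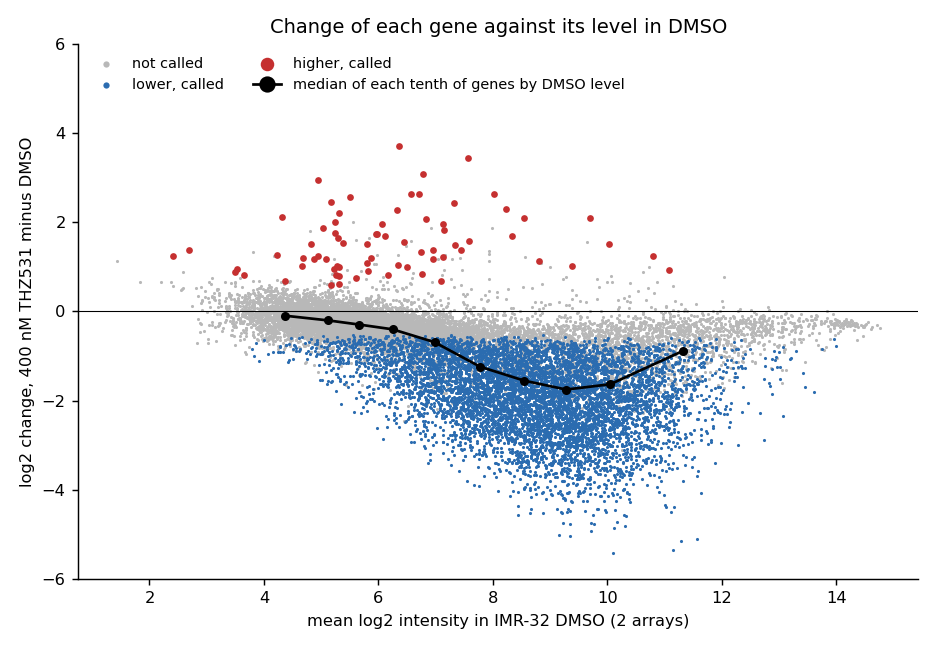
Log2 change at 400 nM in IMR-32 (vertical axis) against the mean log2 intensity in the 2 DMSO arrays (horizontal axis) for each gene, with genes called lower in blue and higher in red, and black points for the median of each of 10 equal bins by level. The medians go from −0.10 in the lowest bin to −1.75 in bin 8 and −0.89 in the highest.

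The 2 kinases that the compound inhibits were themselves lower in mRNA. CDK12 was at 8.24 and 8.60 in the DMSO arrays and 5.67 and 5.82 in the treated ones, and CDK13 was at 8.33 and 8.73 in the DMSO arrays and 4.85 and 4.97 in the treated ones. In both genes the 2 treated arrays lay within 0.2 of each other and more than 2 below the lower DMSO array. The changes were −2.68 ± 0.57 for CDK12 and −3.62 ± 0.81 for CDK13, and −1.65 ± 0.28 for CCNK, which encodes cyclin K (limma adjusted p of 0.0174 to 0.0175). Relative to the median gene they were −2.01, −2.95 and −0.98. Both treated values of CDK13 were below the background mean, and down to that mean its change was −3.51.

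Of 17 transcription CDKs and cyclins 13 fell, including CDK7, the kinase of TFIIH (−3.24 ± 0.58), and CCNC, the cyclin of the Mediator kinase module (−3.49 ± 0.68). The list had a median of −1.65. RNA polymerase II itself changed less. Of its 12 subunit genes, all of them bright, 4 fell, and the median was −0.56, which is 0.11 relative to the median gene. POLR2D (−2.57 ± 0.50) and POLR2H (−1.83 ± 0.41) fell most clearly.

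Mediator, the complex that joins transcription factors to the polymerase, stood low as a whole. Of 27 measured subunits 22 fell and 0 rose, all 22 among the 26 above the median DMSO level, with a median of −2.23. MED26 was at 9.39 and 9.42 in the DMSO arrays and 7.11 and 6.53 in the treated ones (−2.59 ± 0.23), and MED9 (−3.60 ± 0.73), MED10 (−2.42 ± 0.42) and MED19 (−2.23 ± 0.44) fell too, MED9 to below the background mean. Integrator, which cleaves nascent RNA at small nuclear RNA genes and at paused promoters, had 13 of 16 members lower and a median of −2.20. INTS13 (−3.67 ± 0.79), INTS12 (−3.15 ± 0.68) and INTS5 (−1.37 ± 0.27) were among them, although INTS5 changed by 0.16 with quantile normalization.

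General transcription factors and TFIID had 16 of 28 members lower (57.1%), where 63.4% of genes above the median DMSO level fell. TBP, the TATA-binding protein, fell by 3.85 ± 0.71, and the TFIID subunit genes TAF5 (−3.71 ± 0.73) and TAF4 (−3.50 ± 0.52) fell as well. Elongation and pausing factors had 20 of 28 lower, among them PAF1 (−2.70 ± 0.47) and LEO1 (−2.28 ± 0.48) of the PAF complex and NELFA of the pausing factor NELF (−2.37 ± 0.33). HEXIM1, which holds the elongation kinase P-TEFb inactive, was the member with a positive change (1.55 ± 0.64) and did not pass (limma adjusted p = 0.0795). Its value is 2.23 relative to the median gene.

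Among RNA processing genes, the cleavage, spliceosome and SR lists had shares of falls near or below 63.4%, that of genes above the median level. Integrator (81.2%) and the mRNA decay list (70%) lay above it. Cleavage, polyadenylation and termination factors had 19 of 29 members lower and a median of −1.60. PAPOLG, a poly(A) polymerase, was at 8.72 and 9.01 in the DMSO arrays and 5.08 and 4.52 in the treated ones (−4.07 ± 0.73), with 1 treated array below the background mean. SCAF4, a protein that prevents early polyadenylation, fell by 3.99 ± 0.82, as did the cleavage factor genes CSTF1 (−3.10 ± 0.64) and CPSF7 (−2.44 ± 0.49). In the spliceosome 26 of 44 members fell, with a median of −1.02, including PRPF4 of the tri-snRNP (−3.69 ± 0.71) and the helicase gene DHX8 (−2.07 ± 0.40). Of 22 SR proteins and their kinases 8 fell, among them SRSF4 (−1.98 ± 0.38) and the kinases CLK2 (−1.97 ± 0.40) and CLK3 (−2.12 ± 0.28).

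In the list of mRNA decay 35 of 50 members fell and 1 rose, with a median of −1.84. CNOT9 (−2.69 ± 0.52) and CNOT11 (−2.41 ± 0.47), of the deadenylase complex, were lower. EXOSC9, of the RNA exosome, fell by 2.70 ± 0.54, and UPF1, the helicase of nonsense-mediated decay, changed by −1.72 ± 0.31. The member that rose was ZFP36, which binds AU-rich mRNAs and directs them to decay. It was at 5.70 and 6.23 in the DMSO arrays and 7.76 and 7.65 in the treated ones, a rise of 1.74 ± 0.52 (limma adjusted p = 0.0305).

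**Figure D2:**
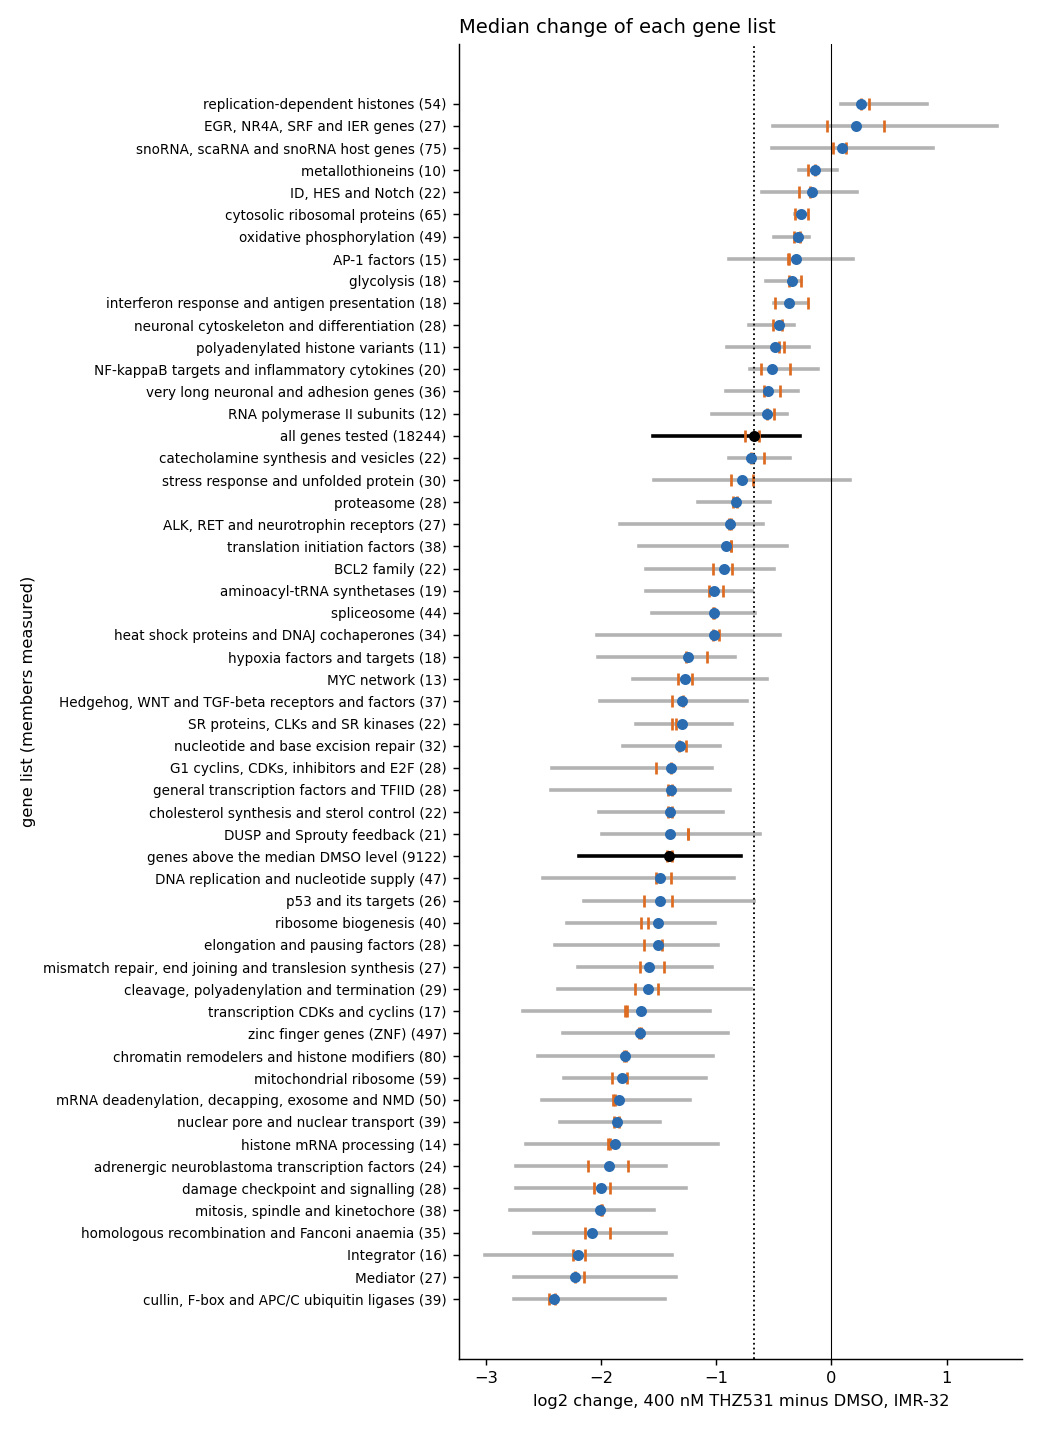
Median log2 change of each gene list at 400 nM in IMR-32 (horizontal axis, points), with the quartiles of its members (bars), its median in each of the 2 arrays (orange ticks) and the number of measured members in brackets. Black marks the 18244 genes tested and the 9122 above the median DMSO level, the dotted line is the median gene at −0.67, and the lists run from −2.41 for cullin and APC/C ubiquitin ligases to 0.26 for replication-dependent histones.

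DNA repair genes, several of which are known to depend on CDK12, were largely lower. Homologous recombination and Fanconi anaemia genes had 31 of 35 members lower, 26 of 29 of those above the median level, and a median of −2.08. EXO1, the nuclease that resects DNA ends, was at 9.88 and 10.31 in the DMSO arrays and 5.93 and 6.01 in the treated ones (−4.12 ± 0.87), and PALB2, which brings BRCA2 to breaks, was at 8.55 and 9.36 in the DMSO arrays and 5.43 and 5.29 in the treated ones (−3.60 ± 0.78). Both treated arrays were below both DMSO arrays for each of these genes. FANCM, a translocase, fell by 3.41 ± 0.66 to below the background mean, and FANCE, of the Fanconi core complex, changed by −2.41 ± 0.42.

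Checkpoint and signalling genes had 23 of 28 members lower and a median of −2.0. Those lower included the phosphatase genes CDC25A (−3.34 ± 0.47) and PPM1D (−3.72 ± 0.67), the kinase gene WEE1 (−2.76 ± 0.56) and TIPIN, of the replication fork protection complex (−2.81 ± 0.57). Excision repair changed less. Its 20 of 32 members lower and median of −1.32 lie near the values of all genes above the median level. UNG, the uracil glycosylase, fell by 1.65 ± 0.28, and the nuclease genes FEN1 (−1.83 ± 0.33) and APEX2 (−2.36 ± 0.48) were lower. Mismatch repair, end joining and translesion synthesis had 19 of 27 lower, led by NHEJ1 (−1.73 ± 0.33), the ubiquitin ligase gene RAD18 (−2.96 ± 0.53) and REV1 (−2.50 ± 0.47).

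Among proliferation genes the mitotic list was the lowest. Of 38 genes of the spindle and kinetochore 32 fell and 0 rose, with a median of −2.01. CENPA, the histone of centromeres, was at 10.80 and 11.25 in the DMSO arrays and 6.67 and 6.61 in the treated ones (−4.38 ± 0.85). The kinase genes AURKA (−3.40 ± 0.63) and TTK (−3.19 ± 0.61) fell, and so did INCENP, of the chromosomal passenger complex (−1.87 ± 0.37). DNA replication genes had 31 of 47 members lower with a median of −1.49, including the origin factors CDT1 (−2.33 ± 0.44), ORC1 (−2.27 ± 0.44), GINS3 (−2.27 ± 0.36) and DBF4 (−3.40 ± 0.57). G1 cyclins, CDKs and E2F genes had 17 of 28 lower, with CCNE1 at −2.40 ± 0.36, E2F1 at −2.04 ± 0.42 and E2F2 at −2.52 ± 0.45. Replication and G1 genes thus had shares of 66% and 60.7% lower. Both lie near the 63.4% of genes above the median DMSO level, whose median was −1.41. Several inhibitors and CCND2 had small positive values that did not pass, among them 0.04 ± 0.23 for CDKN1A.

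The lowest median of all lists belonged to the ubiquitin ligases of the cullin, F-box and APC/C families, −2.41, with 27 of 39 members lower. That share is 69.2%, where 63.4% of genes above the median DMSO level fell. KEAP1, the adaptor that turns over NRF2, was at 10.03 and 10.16 in the DMSO arrays and 6.95 and 6.80 in the treated ones (−3.22 ± 0.59). KLHL18, another cullin adaptor, fell by 3.13 ± 0.55, and the scaffold gene CUL2 (−2.75 ± 0.57) and CDC27, of the APC/C (−2.76 ± 0.53), were lower. The proteasome, which degrades the products of these ligases, had 10 of 28 members lower and a median of −0.83. Chromatin remodelers and histone modifiers had 64 of 80 lower and a median of −1.79, with the remodeler genes CHD1, ARID1A and CHD8 at −3.76 ± 0.78, −2.63 ± 0.39 and −2.40 ± 0.49 and both treated values of CHD1 below the background mean. Nuclear pore and transport genes had 28 of 39 lower and a median of −1.86, with NUP85 at −2.29 ± 0.48, POM121 at −2.49 ± 0.44 and the importin gene KPNA3 at −3.24 ± 0.67. Of 497 zinc finger genes taken by their ZNF symbols, 362 fell and 0 rose, with a median of −1.67, although their median DMSO level of 7.26 was close to that of all genes.

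The largest falls among bright genes took them below the level of the median gene. RNF111, a SUMO-targeted ubiquitin ligase, was at 9.84 and 10.36 in the DMSO arrays and 4.50 and 4.86 in the treated ones (−5.42 ± 1.26). MALSU1, a factor of mitochondrial ribosome assembly, was at 11.16 and 11.42 in the DMSO arrays and 6.37 and 5.88 in the treated ones (−5.16 ± 0.79), and UMPS, an enzyme of pyrimidine synthesis, was at 11.42 and 11.71 in the DMSO arrays and 6.32 and 6.59 in the treated ones (−5.11 ± 1.12). In each of these genes both treated arrays were more than 4.7 below the lower of the controls. The repressor gene E2F6 changed by −5.05 ± 0.87, the nuclear receptor gene ESRRG by −4.92 ± 1.14 and EIF4ENIF1, which carries the cap-binding protein into the nucleus, by −4.86 ± 1.0. The rest of the 15 largest were E2F5, FBXO28, LONRF1, ZNF827, ASF1A, a histone chaperone, RNF146, the remodeler gene BAZ1A, ZC3H4, a factor that restrains noncoding transcription, and ZNF140. They fell by 4.50 to 4.83 on the log2 scale, and BAZ1A had the widest gap between its controls, 9.07 and 10.44. Both treated arrays were below the background mean for RNF111, E2F6, FBXO28, LONRF1 and ZNF140 and 1 of them for ESRRG, ZNF827 and BAZ1A. Down to that mean the change was −5.08 for RNF111 and −4.34 for E2F6, and the order of these genes is not read.

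**Figure D3:**
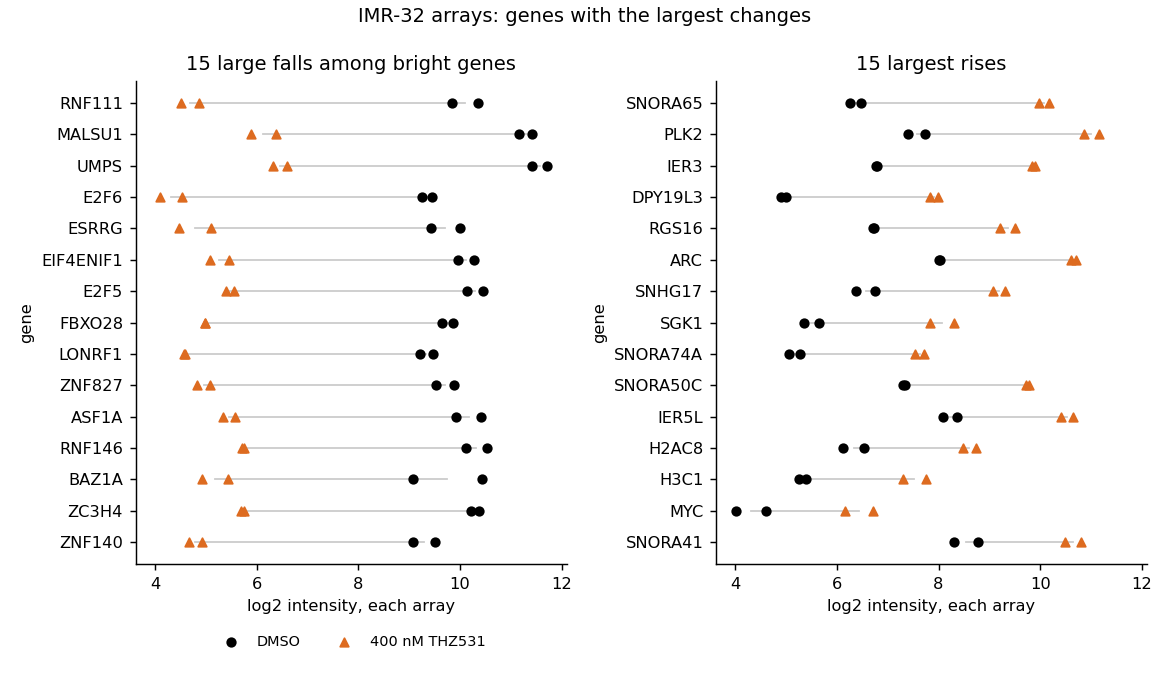
Log2 intensity in each of the 2 DMSO arrays (black circles) and the 2 arrays at 400 nM (orange triangles) for the 15 large falls among bright genes (left) and the 15 largest rises (right), with grey lines joining the group means. Genes were chosen so that the groups do not overlap, and the falls end between 4.09 and 6.59.

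The transcription factors that hold the identity of the line were lower. Of 24 adrenergic transcription factors 21 fell and 0 rose, with a median of −1.93. PHOX2A was at 11.58 and 11.70 in the DMSO arrays and 8.97 and 8.76 in the treated ones (−2.78 ± 0.52), and ISL1 was at 11.64 and 11.84 in the DMSO arrays and 9.23 and 8.79 in the treated ones (−2.73 ± 0.45). GATA3 (−1.95 ± 0.31) and HAND1 (−2.60 ± 0.44) fell too, and all 4 genes were still above 7.37, the DMSO level of the median gene, at 400 nM. MYCN, amplified in this line, was at 13.61 and 13.87 in the DMSO arrays and 13.03 and 12.76 in the treated ones, a fall of 0.85 ± 0.21 that is −0.18 relative to the median gene, and it changed by 0.19 and 0.35 when arrays were centred on the median of all rows or genes.

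Of the MYC network 8 of 13 genes fell and 1 rose. MAX, the shared partner (−1.65 ± 0.32), MLX (−2.58 ± 0.62) and MXD3 (−1.73 ± 0.38) were among the falls. MYC was the member that rose. It was at 4.0 and 4.61 in the DMSO arrays and 6.70 and 6.16 in the treated ones, a rise of 2.12 ± 0.54 (limma adjusted p = 0.0203). Both DMSO arrays were below the background mean, so the start of this rise was not measured, and from that mean it was 1.38. The treated level was close to that of the median row, 6.40.

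Genes for the mature functions of the cell had smaller median changes. Catecholamine synthesis and vesicle genes had 6 of 22 lower and a median of −0.70. TH, the rate-limiting enzyme of catecholamine synthesis, was at 9.33 and 9.48 in the DMSO arrays and 9.16 and 9.02 in the treated ones, and its change of −0.31 ± 0.20 did not pass. CHGA and SCG2, granule proteins, changed by −0.80 ± 0.23 and −2.50 ± 0.76 and the syntaxin gene STX1A by −0.91 ± 0.27, and all 3 passed, while CHGA and STX1A changed by 0.24 and 0.13 with arrays centred on the median of all rows. Neuronal cytoskeleton and differentiation genes, all 28 of them bright, had 5 lower and a median of −0.45, with the RNA-binding protein gene ELAVL2 at −2.33 ± 0.55, MAP1A at −1.52 ± 0.41 and the tubulin gene TUBB3 at −1.01 ± 0.29, the last of which changed by 0.18 with arrays centred on all genes. Of the receptors of this lineage 13 of 27 fell, among them the kinase genes KIT (−2.57 ± 0.54) and FGFR1 (−1.20 ± 0.26), which changed by 0.30 with quantile normalization.

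The 2 kinds of ribosome had unlike medians. Of 65 cytosolic ribosomal protein genes 0 passed in either direction, and their median was −0.26, with quartiles of −0.31 and −0.21. For 51 of them both 400 nM arrays were below both DMSO arrays, for 1 above, and for 13 the groups overlapped. Over all 18244 genes these counts were 13977, 494 and 3773. Of 59 genes of the mitochondrial ribosome and its assembly 47 fell, and in all 59 both treated arrays were below the DMSO arrays, with a median of −1.82. MRPL17 was at 10.17 and 10.38 in the DMSO arrays and 6.30 and 6.23 in the treated ones (−4.01 ± 0.83), and MRPL18 was at 11.42 and 11.71 in the DMSO arrays and 8.0 and 7.75 in the treated ones (−3.69 ± 0.55). MRPL14 fell by 1.76 ± 0.30. The difference between the lists was not tested, and the lists differ in level, with median DMSO levels of 14.11 and 10.50.

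The 10 brightest genes in DMSO were RPL32, RPS2, EEF1A1, RPL37A, RPL41, PTMA, GAPDH, RPL13A, RPL31 and TPT1, which serve protein synthesis, glycolysis and chromatin. RPL32 was at 14.64 and 14.89 in the DMSO arrays and 14.49 and 14.32 in the treated ones (−0.36 ± 0.21), and GAPDH was at 14.37 and 14.65 in the DMSO arrays and 14.28 and 14.14 in the treated ones (−0.30 ± 0.21). The 10 genes changed by −0.40 to −0.23, and none passed. Their levels ran from 14.33 to 14.89 in the DMSO arrays, near 15.03, the highest value in the table, where intensities can saturate, and whether that held the changes small was not tested. Relative to the median gene these values are positive, and RPL32, EEF1A1 and GAPDH were called higher, at 0.83, 0.84 and 0.89, with arrays centred on the median of all genes.

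Oxidative phosphorylation had 4 of 49 members lower and a median of −0.29, led by NDUFV2 of complex I (−2.21 ± 0.50). Glycolysis had 3 of 18 lower and a median of −0.34. PFKFB3, which makes the activator of phosphofructokinase, was its lowest member by adjusted p (−2.16 ± 0.25). Translation initiation factors had 16 of 38 lower and a median of −0.92, while ribosome biogenesis genes had 29 of 40 lower and a median of −1.51, with GAR1, a protein of box H/ACA particles, at −3.20 ± 0.50 and NOP16 at −2.18 ± 0.30. Cholesterol synthesis and its control had 15 of 22 lower (68.2%), where 63.4% of genes above the median DMSO level fell. INSIG1, which holds the sterol sensor in the endoplasmic reticulum, was at −4.45 ± 0.85 and the epoxidase gene SQLE at −3.26 ± 0.64.

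Relative to the median gene the lists kept their order, since the same constant is added to each, but fewer members passed. With the median gene brought near 0, 17 of 27 Mediator genes, 34 of 59 of the mitochondrial ribosome and 20 of 39 cullin and APC/C ligases were called lower. So were 37 of 80 of the chromatin list, 17 of 38 of mitosis and 16 of 35 of homologous recombination. The references are 3251 of all 18244 genes and 2970 of the 9122 above the median DMSO level. For the spliceosome 7 of the 26 falls were left, for SR proteins and kinases 5 of 8 and for the proteasome 4 of 10. In the other direction 33 of 54 replication-dependent histones, 28 of 75 of the small nucleolar RNA list and 11 of 27 of the EGR and IER list were called higher. Of 65 cytosolic ribosomal protein genes 2 were, and of all 18244 genes 868.

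Lists of stress and death genes held 0 to 2 rises each, where 0.395% of all genes rose. Their falls are read against 39.0% of all genes and 63.4% of those above the median level. Of 26 genes of p53 and its targets 16 fell and 0 rose, including the nuclease gene AEN (−2.98 ± 0.53), and CDKN1A, the classical target, was at 11.04 and 11.26 in the DMSO arrays and 11.44 and 10.95 in the treated ones (0.04 ± 0.23). Of 22 genes of the BCL2 family 14 fell, among them BCL2L1, which encodes the survival protein BCL-XL (−1.54 ± 0.31), with 1 of 2 further probe sets opposite in sign. Of 34 heat shock and DNAJ genes 15 fell and 0 rose, with the cochaperone gene DNAJB1 at −3.31 ± 0.60. Among 30 genes of the stress and unfolded protein response 14 fell, including XBP1 (−3.79 ± 0.68) and SESN2 (−2.22 ± 0.30), and 2 rose, PLK2 and SGK1. In the NF-kappaB list 5 of 20 fell, with NFKB1 at −2.40 ± 0.44 and RELA at −2.55 ± 0.42. Hypoxia genes (12 of 18), Hedgehog, WNT and TGF-beta genes (22 of 37) and tRNA synthetases (10 of 19) had falls and 0 rises. In the interferon list 1 of 18 fell, and in the metallothionein list 1 of 10 fell, MTF1, the activator of metallothionein genes (−1.75 ± 0.46), and MT2A rose by 0.69 ± 0.19.

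Against this background 72 genes rose. Of these, 15 were replication-dependent histone genes, 15 were small nucleolar RNAs or their host genes, 13 were on the lists of early response genes, and 29 were on none of these. The rises were dim and short. In DMSO 59 of the 72 lay below the median gene, and their median span on the genome was 1.65 kb against 25.7 kb for all genes and 33.6 kb for those that fell. Genes of under 5 kb numbered 57 of 72 among the rises and 2649 of the 18201 genes with a span.

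The largest rises of protein-coding genes were those of PLK2, IER3, DPY19L3 and RGS16. PLK2, a polo-like kinase, was at 7.40 and 7.74 in the DMSO arrays and 11.16 and 10.85 in the treated ones (3.44 ± 1.07), and all 3 of its other probe sets rose. IER3, an early response gene, was at 6.77 and 6.80 in the DMSO arrays and 9.84 and 9.90 in the treated ones (3.09 ± 0.60), and RGS16, which limits signalling by G proteins, was at 6.73 and 6.70 in the DMSO arrays and 9.51 and 9.21 in the treated ones (2.64 ± 0.64). Treated arrays were more than 2.4 above the higher control in each of these genes. SGK1, a kinase of the glucocorticoid response, rose by 2.57 ± 0.80, and ARC, a gene of neuronal activity, rose by 2.63 ± 0.55. The value of DPY19L3, 2.96 ± 0.87, rests on 1 probe set, since 2 of 4 further ones were opposite in sign, and both DMSO arrays were below the background mean.

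Early response genes, which are known to be induced within minutes by growth factors or stress and have few and short introns, went both ways. Of 27 EGR, NR4A, SRF and IER genes 8 rose (29.6%) and 5 fell (18.5%), against 0.395% and 39.0% of all genes. IER2 was at 9.64 and 9.76 in the DMSO arrays and 11.80 and 11.78 in the treated ones (2.09 ± 0.42), and EGR1, a zinc finger factor, was at 6.82 and 7.08 in the DMSO arrays and 8.35 and 8.29 in the treated ones (1.37 ± 0.46). IER5L and IER5 rose by 2.30 ± 0.48 and 1.5 ± 0.43, and 1 of 5 further probe sets of EGR1 was opposite in sign. SRF, the factor that binds the CArG box in front of such genes, was at 9.07 and 9.30 in the DMSO arrays and 7.44 and 7.04 in the treated ones and fell by 1.94 ± 0.26, and the nuclear receptor gene NR4A1 fell by 1.91 ± 0.37.

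Among 15 AP-1 genes 3 rose (20%) and 4 fell (26.7%), against 0.395% and 39.0% of all genes. FOS was at 7.39 and 7.49 in the DMSO arrays and 8.90 and 8.73 in the treated ones (1.37 ± 0.24), and JUNB was at 8.11 and 8.57 in the DMSO arrays and 10.09 and 9.97 in the treated ones (1.69 ± 0.38). In both genes the groups were more than 1.2 apart. ATF3 rose by 1.17 ± 0.37, with 3 of 6 further probe sets opposite in sign, and BATF3 (−1.74 ± 0.37) and JUND (−1.24 ± 0.29) fell, although JUND changed by 0.29 with quantile normalization. Of 21 DUSP and Sprouty genes, which give feedback to the ERK pathway, 12 fell (57.1%) and 0 rose. Over genes above the median level 63.4% fell, and 0.395% of all genes rose. The phosphatase genes DUSP4 and DUSP5 were at −1.99 ± 0.29 and −1.60 ± 0.32 and SPRED2 at −3.29 ± 0.58. Of 22 ID, HES and Notch genes 2 rose, ID1 (0.93 ± 0.29) and NRARP (1.12 ± 0.29), and 4 fell, with SMAD6 at −2.87 ± 0.73.

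Promoters of the rises were compared with those of all genes in RefSeq windows of assembly GRCh38.p14 that run from 250 bases before to 50 after each start. A window was at hand for 43 of the 72 rises, 5966 of the genes that fell and 14472 of the genes tested. The TATA box, searched as TATAAA on both strands, was in 20 of 43 windows of the rises (46.5%), in 4.44% of those of the falls and in 9.22% of those of the genes tested. The CCAAT box, searched as CCAAT on both strands, was in 27 of 43 (62.8%), 37.7% and 36.4%. The CArG box, 2 C, 6 A or T and 2 G, was in 2 of 43 (4.65%), 0.955% and 1.26%. The core of the cAMP response element, searched as TGACG on both strands, was in 17 of 43 (39.5%), 35.8% and 29.8%. A match of letters is a description and not a binding site, and 9 of the 20 windows with a TATA box belonged to histone genes, which resemble each other.

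Of 11 windows of early response genes that rose, 4 held TATAAA and 1 a CArG box. Boxes more than 250 bases before a start, for FOS or any other gene, were not searched. The 250 bases before the start of 3 genes that hold such motifs are printed with TATA and CArG boxes in capitals. FOS at chr14:75278578-75278827 (plus strand) has a TATA box close to its start, JUNB at chr19:12791236-12791485 (plus strand) has one too, and EGR1 at chr5:138465229-138465478 (plus strand) has 2 CArG boxes and no TATAAA.
FOS: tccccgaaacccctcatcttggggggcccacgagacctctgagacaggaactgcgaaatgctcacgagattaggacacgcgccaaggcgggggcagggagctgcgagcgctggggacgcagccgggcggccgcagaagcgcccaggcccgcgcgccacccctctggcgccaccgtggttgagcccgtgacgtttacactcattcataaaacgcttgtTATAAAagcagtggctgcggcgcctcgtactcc
JUNB: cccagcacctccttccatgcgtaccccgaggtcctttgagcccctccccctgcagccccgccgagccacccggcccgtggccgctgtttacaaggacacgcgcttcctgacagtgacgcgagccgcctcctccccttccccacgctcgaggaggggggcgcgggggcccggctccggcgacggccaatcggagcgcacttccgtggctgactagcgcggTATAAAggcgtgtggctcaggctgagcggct
EGR1: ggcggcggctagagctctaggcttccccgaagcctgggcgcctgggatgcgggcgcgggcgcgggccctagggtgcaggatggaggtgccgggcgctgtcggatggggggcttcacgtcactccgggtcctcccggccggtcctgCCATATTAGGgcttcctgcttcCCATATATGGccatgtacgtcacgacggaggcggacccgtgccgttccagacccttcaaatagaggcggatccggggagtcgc

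Replication-dependent histone genes are expressed in S phase, and their transcripts carry a 3' stem loop and no poly(A) tail. Labelling started from poly(A) tails, so more transcript and more tailed transcript cannot be told apart here. These genes had the highest median of the lists. Of 54 measured genes 15 rose and 1 fell, against the 0.395% of all genes that rose, and their median was 0.26, which lies 0.93 above that of all genes. H2AC8 was at 6.12 and 6.54 in the DMSO arrays and 8.48 and 8.73 in the treated ones (2.28 ± 0.42), H2BC15 was at 6.13 and 6.09 in the DMSO arrays and 7.73 and 7.87 in the treated ones (1.69 ± 0.35), and H4C4 was at 5.08 and 5.51 in the DMSO arrays and 6.82 and 7.06 in the treated ones (1.64 ± 0.34). Over the list both treated arrays were above both DMSO arrays for 29 genes and below them for 8, and 17 overlapped. Over all 18244 genes 494 were above, 13977 below and 3773 overlapping. H3C1 (2.21 ± 0.51) and H2AC17 (1.51 ± 0.34) rose too. H1-2 was the member that fell (−0.69 ± 0.24, limma adjusted p = 0.0484), and its sign turned under 4 other scalings. The probe sets of 9 of the 15 rises were of kinds that can match several transcripts, so signal from near-identical histone genes cannot be assigned to 1 copy with certainty.

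H2AC17 at chr6:27893186-27893435 (minus strand) illustrates the histone promoters. Its 250 bases before the start hold 3 CCAAT boxes, read on either strand, and 1 TATA box, all in capitals.
H2AC17: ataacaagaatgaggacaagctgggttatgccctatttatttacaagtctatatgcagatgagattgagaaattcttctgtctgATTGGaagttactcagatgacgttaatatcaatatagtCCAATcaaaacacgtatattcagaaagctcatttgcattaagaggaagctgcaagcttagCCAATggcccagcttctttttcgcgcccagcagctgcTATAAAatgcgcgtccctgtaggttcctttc

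The genes that make and process histone mRNA were largely lower. Of 14 measured members 12 fell and 0 rose, with a median of −1.88. SLBP, which binds the stem loop, was at 11.13 and 11.27 in the DMSO arrays and 9.51 and 9.16 in the treated ones (−1.87 ± 0.49). NPAT, the activator of histone genes, changed by −2.95 ± 0.75 and ended below the background mean, ERI1, a nuclease that trims the stem loop, by −2.75 ± 0.54, and LSM11, of the U7 particle, by −1.46 ± 0.32. The list of polyadenylated histone variants was mixed. H2AX fell by 1.28 ± 0.29, CENPA, given above with mitosis, fell too, H2AJ rose by 0.76 ± 0.26 and 8 of 11 did not pass.

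Probe sets named for small nucleolar RNAs, guides of RNA modification that are cut from introns and carry no poly(A) tail, were another large class. Of 75 small nucleolar and Cajal body RNAs and their host genes, 15 rose (20%) and 9 fell (12%), against 0.395% and 39.0% of all genes. SNORA65 was at 6.46 and 6.26 in the DMSO arrays and 10.18 and 9.99 in the treated ones (3.72 ± 0.90), SNORA50C was at 7.29 and 7.33 in the DMSO arrays and 9.78 and 9.72 in the treated ones (2.44 ± 0.57), and SNORA74A was at 5.06 and 5.27 in the DMSO arrays and 7.72 and 7.54 in the treated ones (2.46 ± 0.66). The treated arrays lay more than 2 above the DMSO arrays in these 3, which are all of the H/ACA class. The host gene SNHG17 rose by 2.62 ± 0.58, while SNHG12 (−2.04 ± 0.41), SNORA12 (−1.58 ± 0.26) and SCARNA14 (−1.22 ± 0.25) fell. However, SCARNA14 changed by 0.26 with quantile normalization, and its 1 further probe set was opposite in sign. Labelling started from poly(A) tails, and whether such probe sets read the host transcript was not tested. Rows for ribosomal RNA, which carries no tail either, moved in part with these genes. The 5' row for 28S rRNA was at 13.22 and 13.19 in DMSO and 14.24 and 14.14 at 400 nM, while the 5' row for 18S rRNA was at 13.96 and 13.97 in DMSO and 13.67 and 13.41 at 400 nM. Their part in the rises of untailed RNAs was not tested.

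Gene span was related to the size of the fall. In 5 equal bins by span, with median spans of 3.44, 11.6, 25.7, 54.1 and 156.4 kb, genes had median changes of −0.34, −0.56, −0.80, −1.06 and −0.97. Among genes above the median DMSO level the medians were −0.79, −1.17, −1.45, −1.69 and −1.73, and the share that fell went from 49.0% in the shortest bin to 66.2% in the longest. The longest bin minus the shortest gave −0.63 over all genes, −0.94 above the median level, and from −0.10 in the dimmest to −0.93 in the brightest of 5 bins by level. Genes are not independent samples, so no test is given.

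**Figure D4:**
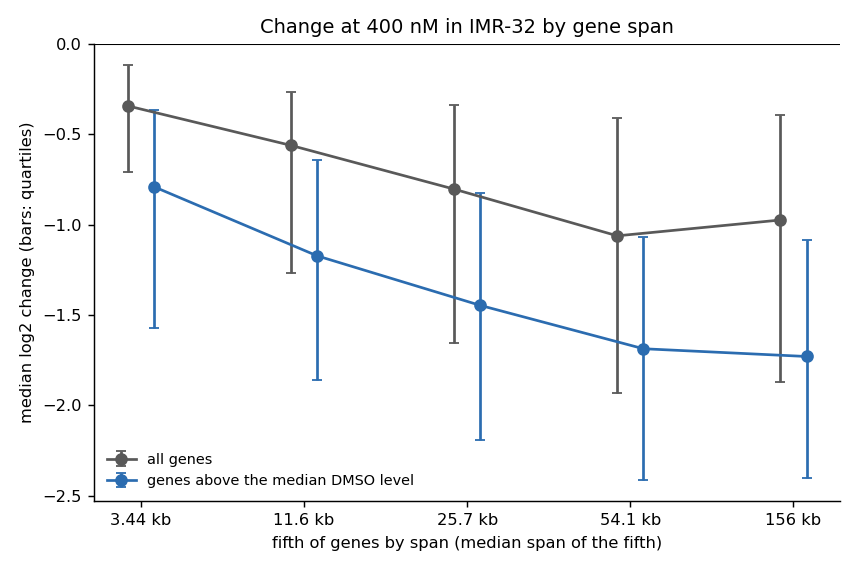
Median log2 change at 400 nM in IMR-32 (vertical axis, bars for quartiles) in 5 equal bins of genes by genomic span (horizontal axis, labelled with the median span of each bin over all genes), for all genes (grey) and for those above the median DMSO level (blue). The medians go from −0.34 to −0.97 in grey and from −0.79 to −1.73 in blue, and the quartiles of neighbouring bins overlap.

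Single long genes did not all follow. The adhesion gene CNTNAP2, with 2304 kb the longest above the median level, was at 7.57 and 7.84 in the DMSO arrays and 7.21 and 7.11 in the treated ones and did not pass (−0.54 ± 0.44). The phosphatase gene PTPRD (2299 kb) was at 7.96 and 8.57 in the DMSO arrays and 5.31 and 5.41 in the treated ones and fell by 2.90 ± 0.65, and GPHN, a scaffold of inhibitory synapses (1227 kb), fell by 2.39 ± 0.61. Among the 6 shortest protein-coding genes above the median level KRTAP12-3 fell by 0.59 ± 0.19, with a sign that turned under 4 other scalings, and the other 5 did not pass, among them H4C12 (0.55 ± 0.28) and UQCRHL (0.06 ± 0.48). Of 36 very long neuronal and adhesion genes 7 fell, with a median of −0.55, but only 15 of them lay above the median level, and those held all 7 falls.

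The same cells at 100 nM gave 2 unlike arrays. Over the 7123 genes that fell at 400 nM the median change from DMSO was −1.39 in replicate 1 and −0.11 in replicate 2 at 100 nM, and over the 72 rises it was 1.27 and 0.08. The comparisons share their DMSO arrays, so these are side by side values and no test. IER3 changed by 2.43 and 0.02 in the 2 arrays at 100 nM, SNORA65 by 3.61 and −0.04, CDK12 by −1.79 and −0.36 and MED26 by −0.08 and 0.05. The difference between 400 and 100 nM was tested in the same fit, where 1 of 18244 genes (0.00548%) passed, MED26, with a difference of −2.58 ± 0.23 (limma adjusted p = 0.0295). With the replicate number as a block 0 genes passed (smallest limma adjusted p = 0.292). Before adjustment 3563 genes were lower and 46 higher at p below 0.05. Next among bright genes were CCDC12, a splicing factor gene, at −2.16 ± 0.28 and FAM83D, a spindle protein gene, at −2.74 ± 0.36, neither of which passed (limma adjusted p = 0.161). Without replicate 1 at 100 nM 5956 genes were lower and 102 higher, without replicate 2 0 passed, and 0 passed without either of the treated arrays, so the step between the doses rests on which array is kept.

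Kelly cells at 400 nM had median changes of −0.34 and −0.16 in the 2 arrays, and the difference between the lines was tested. No gene passed the test of the difference in the effect of 400 nM (0 of 18244, 0.00%, smallest limma adjusted p = 0.398). Before adjustment the change in IMR-32 was the lower one for 1871 genes and the higher one for 33 at p below 0.05. Over the 7123 falls of IMR-32 the median change in Kelly was −0.85 and −0.48, and over the 72 rises it was 0.53 and 0.71. IER3 changed by 1.77 and 1.76 in the Kelly arrays, SNORA65 by 4.02 and 4.19, H2AC17 by 1.76 and 1.78 and MYC by 0.05 and 0.38. RNF111 changed by −2.73 and −1.16 and MED26 by −0.36 and −0.33. Without replicate 2 of Kelly at both doses and of IMR-32 at 100 nM, 3 arrays unlike their partners, 2581 genes were lower and 254 higher in the difference, a choice made after their values were seen.

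**Figure D5:**
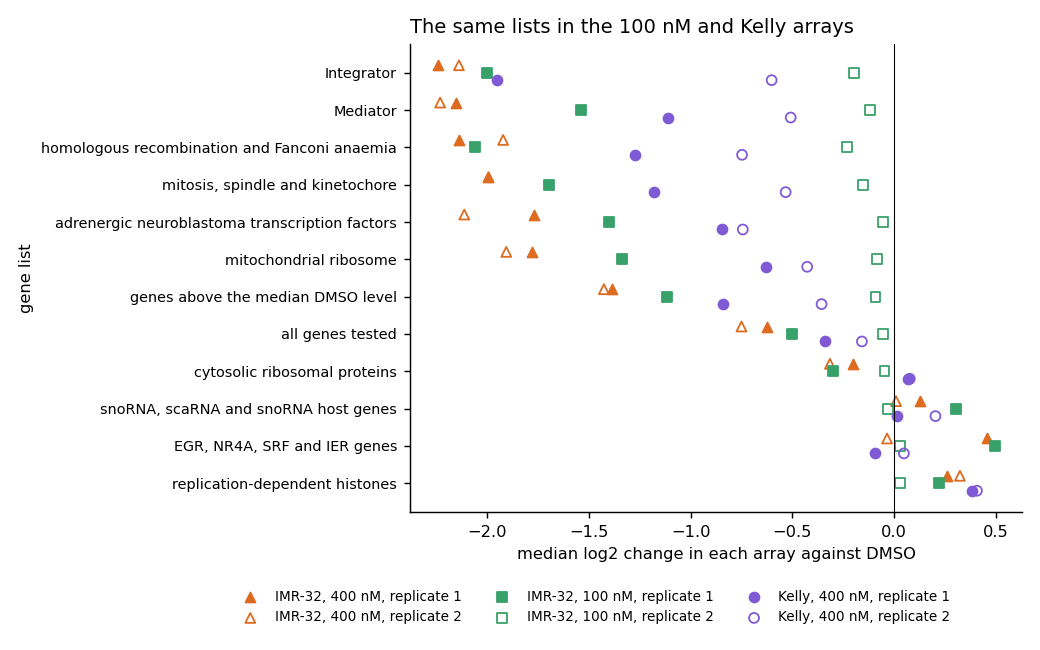
Median log2 change from the DMSO mean of the same line (horizontal axis) for 10 gene lists and 2 reference sets, in each array of IMR-32 at 400 nM (triangles) and 100 nM (squares) and of Kelly at 400 nM (circles), with filled symbols for replicate 1 and open ones for replicate 2. For Mediator the values were −2.15 and −2.23, −1.54 and −0.12, and −1.11 and −0.51.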

How the data were processed

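The 4 IMR-32 arrays at 400 nM and in DMSO were compared within all 12 PrimeView arrays. Groups came from the labels. The values are linear intensities for 49495 rows, which the authors summarised and scaled before they were deposited. The submitters' processing notes name MAS5, the affy package and R 3.1.3, and the methods of the study describe a custom array definition with ERCC probes and a loess curve on spike-ins, with cell numbers taken into account. Intensities ran from 0.893 to 33557 and were log2 transformed without a pseudocount. The 45284 probe sets with 1 symbol were named through the platform annotation, and the brightest over the 12 arrays stood for each of 18244 genes. Probe sets with several symbols (1333) or none (2878, controls included) were left out. Spans came from the RefSeq annotation of GRCh38.p14.

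The 6 group means were estimated with limma 3.58.1 (lmFit, eBayes, R 4.3.3; 6 residual and 2.85 prior degrees of freedom). P-values are two-sided and were adjusted after Benjamini and Hochberg across 18244 genes, with calls at an FDR of 0.05. The fit was tested on simulated data. Summaries and figures used Python 3.11.15, pandas 2.3.3 and matplotlib 3.10.9. The number of arrays limits the precision. Gene lists, named genes and the comparisons were chosen with earlier results of these data known. Any rise could be named, and values were given for the 15 largest above the level of the median row; the 15 largest falls among genes above the upper quartile of level; the 10 brightest genes; CDK12, CDK13, CCNK, MYCN and MYC; the 2 to 4 list members with the smallest adjusted p and those that moved against their list; genes from among the 6 longest and 6 shortest bright ones; and the leading genes of the comparisons with 100 nM and Kelly. TH, CDKN1A, SLBP, NPAT and MTF1 were added after their values were seen. Genes of the Y chromosome were not named. Alternatives in scaling, pseudocount, level filter, probe sets, arrays, variance model and pairing were run.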

Additional observations from a re-analysis of the deposited data

Results flagged for a closer look

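For 213 of the 7195 genes called in IMR-32 at 400 nM, 207 falls and 6 rises, both Kelly arrays moved the other way. Of these, 8 are among the 181 genes followed across the alternatives and have their values here. The difference between the lines was tested and passed for none of them over all genes. The IMR-32 change minus the Kelly change was −2.50 for SNORA12 and −2.49 for SCARNA14, which fell in IMR-32 by 1.58 and 1.22 and had values of 0.92 and 1.27 in Kelly (limma adjusted p = 0.398 for both differences). It was −2.96 for B3GALT2, a galactosyltransferase gene that fell by 2.79 in IMR-32, to below the mean of the background control rows, and was at 0.17 in Kelly, and −1.10 for the histone gene H1-2. It was 1.82 for EGR1, 1.74 for ATF3, 1.76 for HHEX, a homeobox gene, and 1.35 for NRARP, which rose in IMR-32 and had values from −0.57 to −0.18 in Kelly (limma adjusted p = 0.449 for these 6 differences). Such opposite signs are given as values with no explanation.

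Control rows for 28S rRNA, which are in no gene comparison, were higher at 400 nM than in DMSO in IMR-32 by 0.98 for the 5' row, 1.48 for the middle row and 1.00 for the 3' row on the log2 scale. In Kelly the same differences at 400 nM were 0.82, 0.97 and 0.87. With 2 arrays per group no outlier test was made.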

How the results depend on the processing

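Counts of genes lower and higher at 400 nM, 7123 and 72, became 4377 and 255 with equal hybridisation controls, 3251 and 868 with the median gene brought near 0, 2881 and 3416 and 2639 and 5621 with arrays centred on the median of all rows or of all genes, and 2010 and 1353 with quantile normalization, while the median change became −0.11, 0.028, 0.37, 0.52 and 0.18. Testing every probe set, of which there are more than genes, gave 16594 and 149 calls. Restricting to rows above the median gave 41 higher, a median of −1.20 and a span difference of −0.94, and log2(value + 16) a median of −0.57. The 6 IMR-32 arrays alone gave 3865 and 23, and the 4 arrays alone 166 higher. Without either or both IMR-32 100 nM arrays 8567 were lower and 117 higher, and leaving out the 3 arrays unlike their partners gave 178 higher. With a replicate block 5785 genes were lower and 57 higher, of which 5740 and 55 were called without it too. Same-numbered arrays correlated weakly in their deviations (r = 0.159 between DMSO and 400 nM, 0.244 between DMSO and 100 nM and 0.273 between 100 and 400 nM), the labels do not say that numbers mark a batch, only 2 numbers exist, and the numbers were not taken as pairs. Leaving out 1 of the 4 arrays gave 0 calls, a median change between −0.80 and −0.58 and span differences between −0.70 and −0.53. The cause was not tested.

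The longest minus the shortest span bin was −0.52 with the mean of all probe sets and −0.39 with quantile normalization, −0.94 for genes above the median DMSO level, and −0.10, −0.16, −0.79, −0.83 and −0.93 in 5 bins by level. The step from 100 to 400 nM gave 106 genes lower with equal hybridisation controls, 8 with the median gene brought near 0, 24 and 30 with both centrings (and 1 higher with the latter), 73 and 4 higher with quantile normalization, 0 with a replicate block, and 1065 lower and 18 higher without the 3 arrays that stood apart. Leaving out 1 of its 4 arrays gave between 0 and 5956 lower and between 0 and 102 higher. The difference from Kelly gave 2581 lower and 254 higher without those 3 arrays and 0 under the other alternatives run.

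Of 181 named genes, those called as deposited or under the alternative had their sign reversed only by scalings. With arrays centred on the median of all rows the changes were 0.19 for MYCN, 0.24 for CHGA, 0.13 for STX1A, 0.027 for TUBB3, 0.74 for GAPDH, 0.45 for KRTAP12-3 and 0.35 for H1-2. Centred on all genes they were 0.35 for MYCN, 0.39 for CHGA, 0.28 for STX1A, 0.18 for TUBB3, 0.83 for RPL32, 0.84 for EEF1A1, 0.89 for GAPDH, 0.88 for TH, 0.60 for KRTAP12-3 and 0.50 for H1-2. With quantile normalization they were 0.16 for INTS5, 0.57 for STX1A, 0.30 for FGFR1, 0.29 for JUND, 0.26 for SCARNA14, 0.76 for H1-2, 1.05 for TH, 0.83 for KRTAP12-3 and 0.90 for CNTNAP2. H1-2 was at 0.009 and KRTAP12-3 at 0.11 with the median gene brought near 0. Signs of values that were not called turned too. With equal hybridisation controls RPL32 was at 0.20, EEF1A1 at 0.20, GAPDH at 0.26, TH at 0.25 and CNTNAP2 at 0.020, and the same 5 turned with the median gene brought near 0. Under the other alternatives between 1 and 4 uncalled signs turned where any did, among them CDKN1A and UQCRHL with 1 array left out.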
